A study of Mus musculus with 2 samples.

Results

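The 9 genes described here were the CC chemokine ligands Ccl2, Ccl3, Ccl4, Ccl6, Ccl7 and Ccl9, the secreted protein gene Wfdc17, and the CC chemokine receptors Ccr1 and Ccr2. They are 9 of the 16614 genes listed for both libraries of the series and were taken by their symbols. The members were chosen by their FPKM values in these libraries: Ccl3, Ccl4, Ccl6 and Wfdc17, which lie near each other on chromosome 11, were lower in the knockout library. The difference between the libraries is therefore given below as a description of the members and not as a test of them.

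The libraries were made from marrow-derived macrophages of C57BL/6 mice. Marrow from femur and tibia was grown in M-CSF, the growth factor that turns precursors into macrophages, for 3 days, and then received RANKL, the cytokine that turns macrophages into osteoclasts, for 2 days. The cells of 1 library were wild type and those of the other carried a knockout of Foxo3, the gene of a forkhead transcription factor, and poly-A RNA was sequenced from both. WT and KO below stand for these 2 libraries. The knockout allele, the cells in which it was deleted, the age of the mice and the number of mice behind each library do not appear in the labels. Levels are in FPKM, which divides fragments by transcript length and by library size and and so allows levels of genes of different length to be set side by side. Each group holds 1 library, so no value has a replicate error, no p-value was computed, and each difference describes these 2 libraries. Foxo3 stood at 10.3 FPKM in WT against 0.548 FPKM in KO, and the read depth is unknown, with the KO library about 1.40 times as deep by the ratios of 1658 low genes.

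CC chemokines are small secreted proteins named for a pair of adjacent cysteines near the start of the mature protein. They bind G protein-coupled receptors on leukocytes and direct the movement of monocytes and macrophages, and several of them also act on osteoclast precursors. CCR1 binds the products of Ccl3, Ccl6 and Ccl9, and CCR2 binds those of Ccl2 and Ccl7. Ccl9 is known as a chemokine that osteoclasts make after RANKL. Wfdc17 encodes a secreted protein with a WAP domain, the fold of many protease inhibitors, and is known from activated macrophages and microglia.

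The coding sequence around the cysteine pair shows what makes these ligands one family and how far they have come apart. The stretches below were read from the GENCODE M21 transcripts, 5′ to 3′, with the 2 cysteine codons in capitals. They are shown for the 4 ligands of one stretch of chromosome 11.
Ccl9: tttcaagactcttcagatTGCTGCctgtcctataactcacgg
Ccl6: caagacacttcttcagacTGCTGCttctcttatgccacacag
Ccl3: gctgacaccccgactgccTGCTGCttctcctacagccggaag
Ccl4: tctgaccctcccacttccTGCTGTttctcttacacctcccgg
Each of the 6 ligands held 1 such pair in its reading frame. Coding sequences were 70.8% identical between Ccl6 and Ccl9 over 342 aligned bases, 71.1% between Ccl3 and Ccl4 over 270 aligned bases and 72.4% between Ccl2 and Ccl7 over 290 aligned bases. The longest run of bases shared by any of these pairs of transcripts was 25, for Ccl6 and Ccl9. Among the receptors, Ccr1 and Ccr2 were 66.6% identical in coding sequence over 1043 aligned bases and shared a run of at most 16 bases. Ccr1 shared runs of up to 47 bases with Ccr3 and 31 bases with Ccr1l1. Short reads within such runs could have been counted for either gene. No exon of the 9 genes overlapped an exon of another gene in the annotation.

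The 9 genes covered a wide range of levels. Among the ligands, Ccl9 stood at 674.2 FPKM in WT against 611.3 FPKM in KO, rank 131 and rank 149 among the 10003 genes that reached 1 FPKM in at least 1 library and are called measured here. Ccl6 followed at 49.6 and 23.4 FPKM and Ccl3 at 17.6 and 7.42 FPKM. Ccl4 stood at 7.63 FPKM in WT against 1.94 FPKM in KO. The monocyte attractant genes were the lowest ligands of the set in the WT library, Ccl2 at 2.41 and 2.07 FPKM and Ccl7 at 0.742 and 0.490 FPKM, and Ccl7 was the 1 member that was not measured. Wfdc17 stood at 121.9 FPKM in WT against 53.4 FPKM in KO. Of the receptors, Ccr1 was the more abundant at 182.5 and 183.3 FPKM, while Ccr2 read 3.11 and 2.42 FPKM. The order in the WT library was Ccl9, Ccr1, Wfdc17, Ccl6, Ccl3, Ccl4, Ccr2, Ccl2 and Ccl7. In the KO library Ccl4 came below Ccr2 and Ccl2, and the genes were otherwise in the same order. With 1 library a group, it cannot be said which neighbours in either order differ beyond a spread. In bulk RNA, fewer cells of a type and less RNA per cell cannot be told apart.

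**Figure D1:**
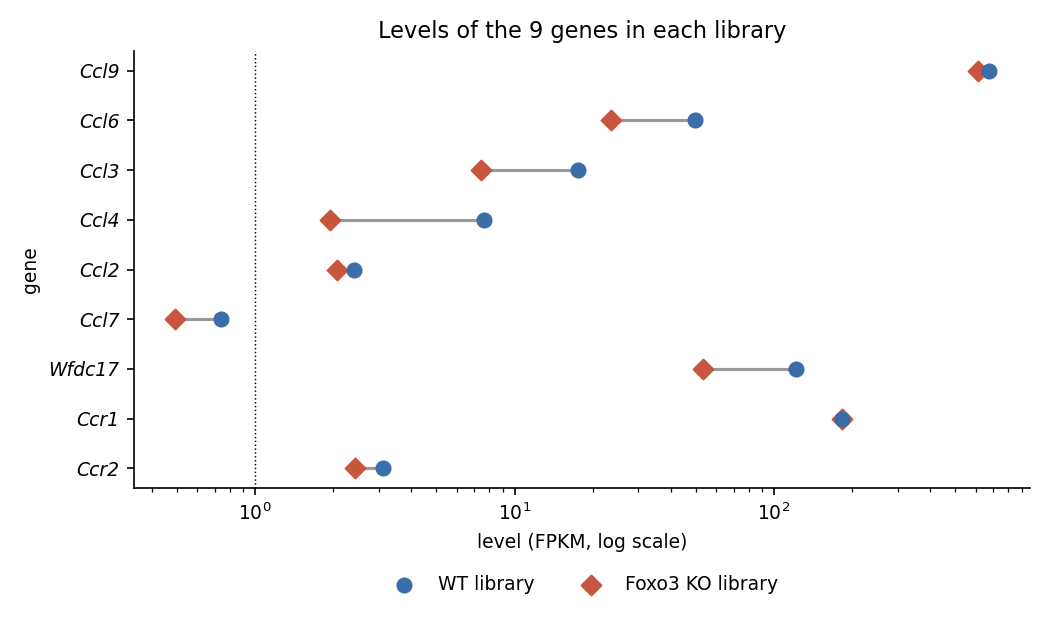
Level of each of the 9 genes in FPKM (log axis) in the WT library (circles) and the Foxo3 KO library (diamonds), 1 library each, with a dotted line at 1 FPKM. The pairs of Ccl6, Ccl3, Ccl4 and Wfdc17 stand far apart, while those of Ccl9 (674.2 and 611.3 FPKM) and Ccr1 (182.5 and 183.3 FPKM) nearly meet.

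Differences were taken as log2(KO + 1) minus log2(WT + 1), a pseudocount of 1 FPKM being added to each, and this is the log2 ratio below. In place of a test, a gene was called where the libraries differed at least 2-fold on this scale. Of the 8 measured members, 4 were called lower and 0 higher in the KO library. Over all measured genes 0.200% were called lower and 0.120% higher. The members were chosen with this contrast, so nothing is read from their count.

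Ccl4 had the lowest log2 ratio of the set, -1.55, and ranked 3 from the lowest of the measured genes. Its KO level was 25.5% of its WT level, a 3.92-fold difference without a pseudocount. Because the gene is low, its log2 ratio depended on the pseudocount and was -1.84 with 0.25 FPKM and -0.86 with 5 FPKM. Ccl3, the partner of Ccl4 in the inflammatory response of macrophages, stood at 42.2% of its WT level, with a log2 ratio of -1.14. The ratio of Ccl3 to Ccl4 was 2.30 in WT against 3.82 in KO, so Ccl4 differed by the larger factor. Ccl6, made by macrophages and other myeloid cells, stood at 47.2% of its WT level with a log2 ratio of -1.05. Wfdc17 stood at 43.8%, with a log2 ratio of -1.18. The ratio of Wfdc17 to Ccl6 was 2.46 in WT against 2.28 in KO, and that of Ccl6 to Ccl3 was 2.83 and 3.16. These genes were chosen for being lower in this contrast, so nothing is read from how alike the ratios are.

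The other 5 members were nearer to 0. Ccl6 was the member just past the 2-fold size, and the next, Ccr2, had a log2 ratio of -0.27. Ccl9 had a log2 ratio of -0.14, Ccl2 one of -0.15 and Ccl7 one of -0.23. Ccr1 had a log2 ratio of 0.01, which turned to -0.02 under trimmed-mean scaling and under centring on the median gene. No other member changed sign under either scaling. For scale, the robust standard deviation of log2 ratios among 500 measured genes of like level was 0.104 for Ccl9, 0.128 for Ccr1, 0.188 for Ccr2 and 0.189 for Ccl2, a spread over genes and not over replicates.

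A small relative difference in an abundant gene was a large one in FPKM. Ccl9 was lower by 62.9 FPKM in the KO library, more than the 26.2 FPKM of Ccl6, and Wfdc17 was lower by 68.6 FPKM. Over the 15 CC ligands listed in the files, the summed level was 768.3 FPKM in WT against 662.5 FPKM in KO. Ccl9 made up 87.7% of that sum in WT against 92.3% in KO. Ccl3, Ccl4 and Ccl6 together made up 9.74% and 4.95%. The CC ligand transcripts of both libraries were thus mostly Ccl9.

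**Figure D2:**
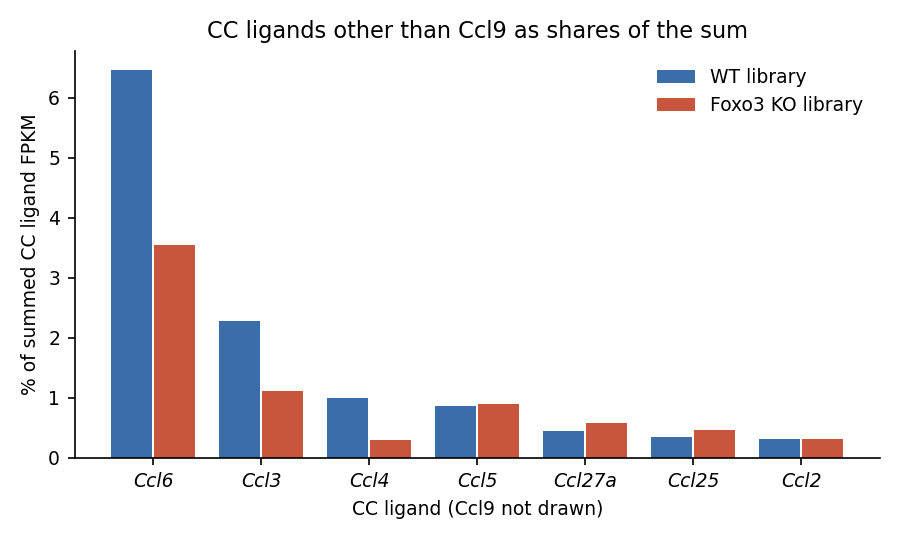
Share of the summed FPKM of 15 CC ligands taken by each ligand other than Ccl9 (bars from 0, percent), for the 7 next most abundant ligands in the WT library, with 1 library per colour. Ccl6, Ccl3 and Ccl4 took smaller shares in the KO library, while Ccl5, Ccl25 and Ccl27a took slightly larger ones.

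The 4 members called lower, Ccl6, Ccl3, Ccl4 and Wfdc17, sit next to one another. The set was chosen partly for this, so nothing is read from it. By the GENCODE M21 annotation on mm10, chromosome 11 holds Ccl9 at 83572919 to 83578636, Ccl6 at 83587882 to 83593087, Ccl3 at 83647844 to 83649355, Ccl4 at 83662584 to 83664683 and Wfdc17 at 83703991 to 83706268. Ccl9, Ccl6 and Ccl3 are on the minus strand and Ccl4 and Wfdc17 on the plus strand. From the start of Ccl6 to the end of Wfdc17 is 118.4 kb. Ccl2 (82035571 to 82037453) and Ccl7 (82045712 to 82047525), both on the plus strand, lie in a separate group 1525 kb before Ccl9. The receptors lie on chromosome 9, Ccr1 at 123962124 to 123968692 on the minus strand and Ccr2 at 124101950 to 124113557 on the plus strand. All 9 are protein-coding.

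Ccl9 and Ccl6 are neighbours, 9.25 kb apart on the same strand, and differed in their values. The ratio of Ccl9 to Ccl6 was 13.6 in WT against 26.1 in KO. Ccl5, the ligand gene on the far side of Ccl9, read 6.69 FPKM in WT against 5.95 FPKM in KO, a log2 ratio of -0.15. On the other side, Wfdc18, a relative next to Wfdc17 with 81.5% identical coding sequence and a shared run of at most 30 bases, was listed at 0.109 FPKM in WT but at 0 in KO. The next measured gene, Heatr6, read 5.12 and 4.53 FPKM with a log2 ratio of -0.15.

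Within 500 kb on either side of the span from Ccl2 to Wfdc17, 20 other genes were measured. Of these, 0 were called either way, 11 had a log2 ratio below 0 and 9 above it, and their median was -0.02. Over all measured genes, 0.200% were called lower and 0.120% higher, so nothing is read from 0 calls among so few genes. Those with a log2 ratio below 0 made up 42.4% and those above it 57.6%, and the median was 0.03. The interferon-inducible gene Slfn8 was the lowest of the 20, at 8.59 FPKM in WT against 5.73 FPKM in KO (-0.51), and the other 19 lay between -0.16 for Slfn9 and 0.19 for Tada2a. Its relatives in the same window differed less, with Slfn2 at 102.1 and 94.6 FPKM and Slfn5 at 31.6 and 28.9 FPKM. Within the same distance of Ccr1 and Ccr2 on chromosome 9, 7 other genes were measured and 0 were called. The lowest was another receptor gene, Ccr3, at 13.5 FPKM in WT against 11.4 FPKM in KO (-0.23), and the highest Sacm1l at 0.11.

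**Figure D3:**
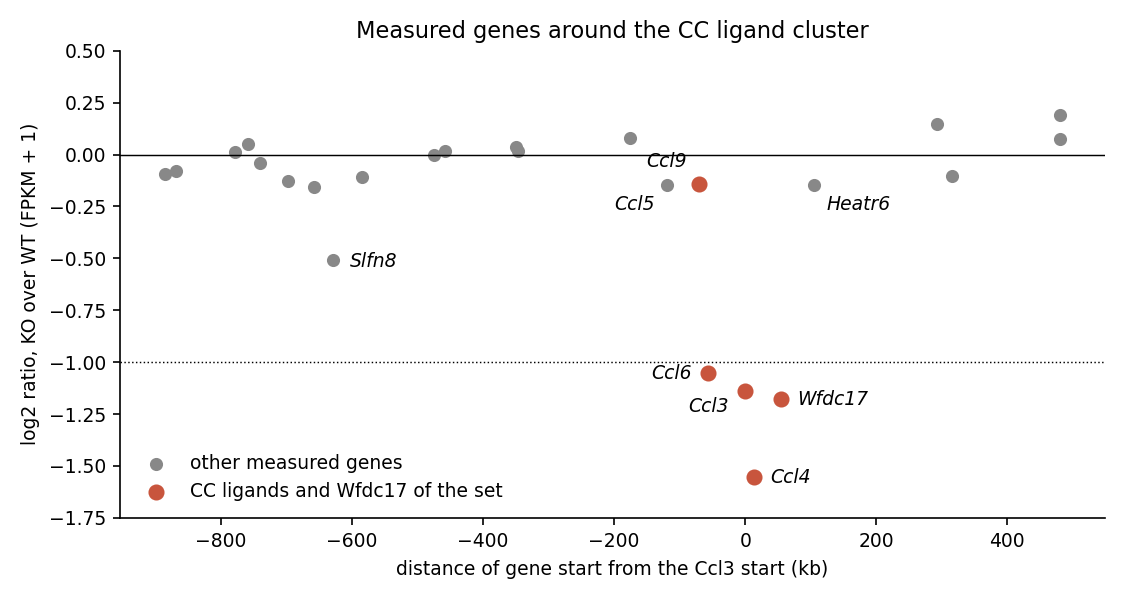
Log2 ratio of each measured gene in the chromosome 11 window, not the whole chromosome, against the distance of its start from the start of Ccl3 (kb). A dotted line marks 2-fold lower. Ccl2 lies farther to the left and is not drawn. The 4 genes from Ccl6 to Wfdc17 lie below the line, and Ccl9, Ccl5 and Heatr6 beside them lie between -0.15 and -0.14.

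Promoter sequence was at hand in RefSeq (GRCm38.p6) for Ccl3, Ccl6, Ccl9, Wfdc17, Ccr1 and Ccr2, 6 of the 9 genes. The 250 bases before the start of 3 genes called lower and of Ccl9, their neighbour near 0, are printed 5′ to 3′ on the strand of each gene. Starts are those of RefSeq, and the GENCODE starts of Wfdc17 and Ccr2 lie inside their windows. Capitals mark matches on either strand to any of 6 motifs: GTAAACA for FoxO factors, the κB consensus, TGACTCA for AP-1, GAGGAAG for PU.1, TGGAAAA for NFAT and the TATA box as TATAAA. The windows are chr11:83578637-83578886 (minus strand) for Ccl9, chr11:83593088-83593337 (minus strand) for Ccl6, chr11:83649379-83649628 (minus strand) for Ccl3 and chr11:83703806-83704055 (plus strand) for Wfdc17.
Ccl9: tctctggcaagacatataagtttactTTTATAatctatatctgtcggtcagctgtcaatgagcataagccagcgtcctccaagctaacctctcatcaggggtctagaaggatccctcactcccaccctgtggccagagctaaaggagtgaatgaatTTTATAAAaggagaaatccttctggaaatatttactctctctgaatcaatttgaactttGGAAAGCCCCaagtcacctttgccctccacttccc
Ccl6: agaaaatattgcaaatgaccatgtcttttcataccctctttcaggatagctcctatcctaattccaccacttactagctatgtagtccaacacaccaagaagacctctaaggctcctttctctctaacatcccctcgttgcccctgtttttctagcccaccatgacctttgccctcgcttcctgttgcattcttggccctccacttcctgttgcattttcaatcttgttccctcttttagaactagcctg
Ccl3: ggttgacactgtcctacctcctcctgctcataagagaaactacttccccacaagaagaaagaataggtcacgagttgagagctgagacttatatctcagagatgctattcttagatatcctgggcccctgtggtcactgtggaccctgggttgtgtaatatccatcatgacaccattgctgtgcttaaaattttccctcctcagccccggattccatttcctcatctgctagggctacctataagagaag
Wfdc17: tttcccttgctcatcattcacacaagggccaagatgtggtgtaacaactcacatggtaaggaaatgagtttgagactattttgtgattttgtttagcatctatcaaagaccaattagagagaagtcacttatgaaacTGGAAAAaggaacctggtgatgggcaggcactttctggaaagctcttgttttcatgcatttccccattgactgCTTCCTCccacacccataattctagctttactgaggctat
The FoxO letters, searched as GTAAACA alone, were in none of the 6 windows and in 3.17% of the 32851 promoter windows of the table. The AP-1 letters were also in none of the 6 and in 4.46% of all windows. A match to the κB consensus lay 35 to 26 bases before the start of Ccl9 and 74 to 65 bases before that of Ccr1, and 7.25% of all windows held one. TATA letters were matched in Ccl9 only among the 6, at 3 places of which 2 overlap, against 12.4% of all windows. Wfdc17 held a PU.1 match 40 to 34 bases before its RefSeq start, which is after its GENCODE start, and 10.6% of all windows held one. It also held an NFAT match 113 to 107 bases before its RefSeq start, and 5.93% of all windows held one. Ccr2 held an NFAT match 192 to 186 bases before its RefSeq start, which is after its GENCODE start. The windows of Ccl3 and Ccl6 held 0 matches, so the 3 genes called lower and printed here had no motif of these 6 in common. A match describes letters and not binding. The absence of one says nothing of other spellings of a motif, which were not searched, or of sites outside the window.

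The rest of the chemokine system was taken from fixed lists. Of 9 other CC ligands in the files, 5 were measured, 2 with a log2 ratio below 0 and 3 above it, with a median of 0.01, and 0 were called. Under both scalings 3 were below 0. Among CXC, CX3C and XC ligands 16 were in the files and 4 were measured, and 1 was called lower. Of these 4, 3 had a log2 ratio below 0 and 1 above it, or 4 below 0 under both scalings, with a median of -0.32. The gene called was Pf4, platelet factor, also made by macrophages, at 55.7 FPKM in WT against 26.2 FPKM in KO. Its log2 ratio of -1.06 was near that of Ccl6, at a similar level, and it is a CXC ligand outside the chromosome 11 group. Cxcl16, a membrane-bound ligand and scavenger receptor, stood at 17.7 and 15.7 FPKM.

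Of 17 other chemokine receptors in the files, 6 were measured, and all 6 had a log2 ratio below 0 as deposited and under each scaling. Their median was -0.08 and 0 were called. The most abundant was Cxcr4, the receptor for Cxcl12, at 81.7 FPKM in WT against 76.4 FPKM in KO. None of the 5 atypical receptors, most of which take up chemokines without G protein signalling, was measured. Of 3 other WAP domain genes in the files, Slpi alone was measured, a secreted inhibitor of leukocyte proteases, at 0.544 and 1.55 FPKM. It was named with its values in view, and its log2 ratio of 0.73 went the other way from that of Wfdc17. Because Slpi is low, its log2 ratio depended on the pseudocount and was 1.18 with 0.25 FPKM and 0.24 with 5 FPKM.

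Genes that carry the signal of these receptors were all measured. Of the 26, 16 had a log2 ratio below 0 and 10 above it, with a median of -0.02 and 0 called, and 18 were below 0 under both scalings. The inhibitory G protein subunit gene Gnai2 stood at 315.0 FPKM in WT against 307.8 FPKM in KO. Rac2, a GTPase of leukocyte movement, stood at 300.9 and 351.7 FPKM. Among those at 10 FPKM or more, the lowest log2 ratios were -0.39 for Gng2, a G protein gamma subunit, and -0.37 for Dock2, an activator of Rac. Next was Pik3cg, a kinase downstream of G proteins, at -0.36, and the highest was 0.22 for Rac2. The receptor kinase genes Grk2, Grk3 and Grk6 and the arrestin genes Arrb1 and Arrb2, which end receptor signals, lay between -0.06 and 0.11.

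Inflammatory cytokine and NF-κB feedback genes, often induced together with Ccl3 and Ccl4, were measured in 11 of 18 cases. Of these 3 had a log2 ratio below 0 and 8 above it, 4 and 7 under both scalings, with a median of 0.08 and 0 called. Nfkbia, the inhibitor of NF-κB that the pathway itself induces, read 213.3 FPKM in WT against 254.2 FPKM in KO, and Tnfaip3, another inhibitor, read 39.2 and 41.4 FPKM. Il1rn, the antagonist of the interleukin receptor, read 13.1 and 11.3 FPKM. Vegfa had the highest log2 ratio of the list, 0.44, at 18.7 and 25.7 FPKM. Tnf was low, at 1.59 and 1.33 FPKM, and Il6 was listed at 0 in both libraries. The latter pair was chosen after the values were seen.

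**Figure D4:**
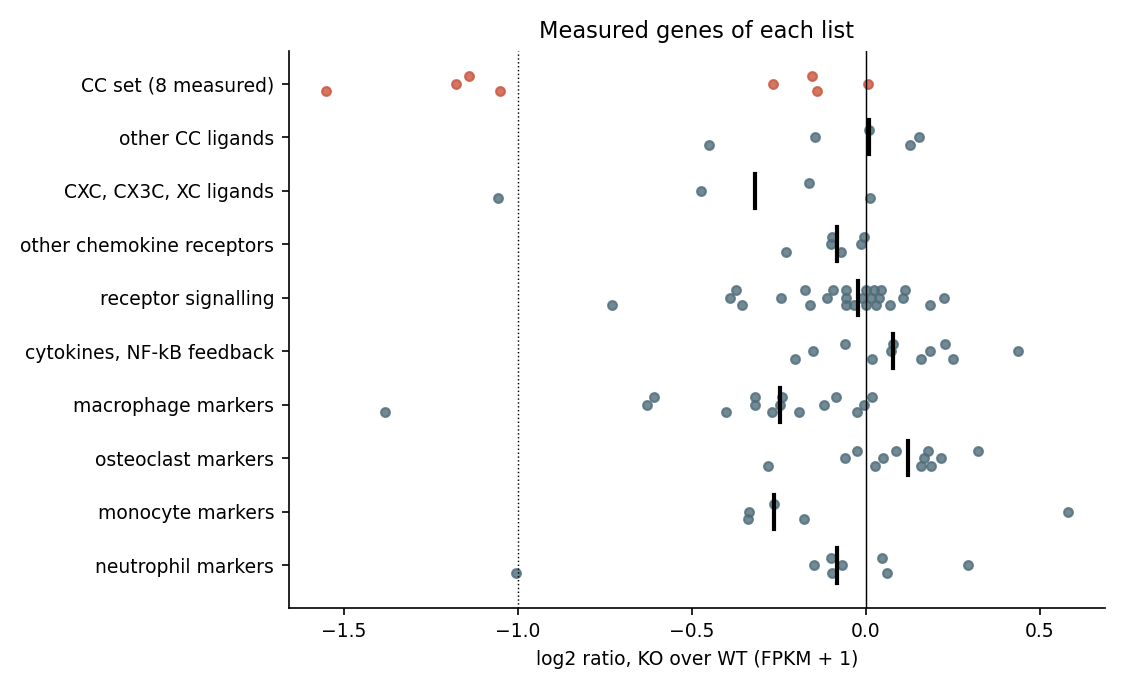
Log2 ratio of every measured gene (points) of the CC set, the chemokine and cytokine lists and 4 lists of cell type markers, with the median of each list but the first as a bar and a dotted line at 2-fold lower. The medians of the chemokine receptor (-0.08) and signalling (-0.02) lists lie near 0. That of the 4 measured CXC, CX3C and XC ligands lies at -0.32 (-0.49 and -0.14 with pseudocounts of 0.25 and 5 FPKM). That of the 15 measured macrophage markers lies at -0.25.

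Both libraries held Cd68 of the macrophage list, at 1573 FPKM in WT against 1546 FPKM in KO. Both also held the osteoclast enzyme gene Acp5, at 7737 and 8636 FPKM, so each of these lists had an abundant gene. Of 16 macrophage markers 15 were measured, 14 with a log2 ratio below 0, or 15 under both scalings, and a median of -0.25. Of these, 1 was called lower, Cd36, a scavenger receptor for lipids, at 84.7 FPKM in WT against 31.9 FPKM in KO, and its log2 ratio of -1.38 was below those of Ccl3, Ccl6 and Wfdc17. The next lowest were Mrc1, the mannose receptor gene, at -0.63 and Mertk, a receptor for the uptake of dying cells, at -0.61. The summed level of the list was 11915 FPKM in WT against 9717 FPKM in KO, most of it Lyz2, and none was at 0. Of 12 osteoclast markers, all measured, 9 were above 0, or 8 under trimmed-mean scaling, with a median of 0.12 and summed levels of 20752 and 23338 FPKM. Monocyte markers had a median of -0.26 over 5 measured genes, 4 of them below 0 and 0 called. The most abundant, F13a1, a clotting factor gene, went the other way, at 13.3 FPKM in WT against 20.5 FPKM in KO (0.58), and Ly6c2 stood at 2.19 and 1.66 FPKM. The list summed to 20.1 and 25.8 FPKM, and Ly6c1 was at 0 in the WT library. Neutrophil markers summed to 159.7 and 155.7 FPKM, with a median of -0.08 over 8 measured genes. Of these, 1 was called lower, Retnlg, listed at 1.01 FPKM in WT but at 0 in KO. Of the T, NK and B cell markers Cd3e, Nkg7 and Gzma were at 0 in both libraries, and Cd4 alone was measured. Of the dendritic, stromal and mast cell, basophil and eosinophil markers 3 of 8, 3 of 8 and 1 of 7 were measured with 0 called, and of the 7 erythroid and megakaryocyte markers 0 were measured. The part of these cell types in the levels of Ccl3, Ccl4, Ccl6 and Wfdc17 was not tested.

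Outside all lists, 5 genes at 10 FPKM or more came nearest to the median log2 ratio of Ccl3, Ccl4, Ccl6 and Wfdc17, which was -1.16. They were Eif2s3y, a translation factor gene of the Y chromosome, at 40.1 FPKM in WT against 17.2 FPKM in KO, Atf3, a transcription factor of the stress response, at 16.5 and 6.72 FPKM, Ypel3 at 36.0 and 15.9 FPKM, Ccnd1, which encodes cyclin D, at 10.1 and 4.21 FPKM, and Lhfpl2 at 15.2 and 6.77 FPKM. The likeness rests on 2 libraries and 1 difference. The sex of the mice behind each library is not given here, and its part in the level of Eif2s3y was not tested.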

How the data were processed

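The deposited values were read as FPKM from the values themselves, since no file header or label names a unit and they are not whole numbers. Their relation to transcript length is not shown here. A constant of 0.000001 on every value was taken off, which leaves some genes at 0. TopHat, edgeR and mm10 are named, per the submitters' processing notes, with no role or version. The sources used here give no quantifier, annotation, filter or scaling between libraries. The 2 libraries were grouped by the genotype in the labels, with 1 in each group. No count model, interval or test was used, and the total depth is unknown. Relative depth was the most frequent WT/KO ratio of genes under 0.15 FPKM in both libraries.

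Members and gene lists were chosen with earlier results of these data known, and markers likewise. Genes named were the members, Foxo3, list genes at 10 FPKM or more, and the 5 outside the lists nearest in log2 ratio, unnamed gene models left out. Measured genes were also named from 500 kb before the first member to 500 kb after the last on each chromosome, gaps between members included. Others are said to be chosen after their values were seen, beside the neighbours Wfdc18 (not measured) and Ccl5, and Cd3e, Nkg7, Gzma, Cd4, Ly6c1, Ly6c2, F13a1, Retnlg, Cd36, Mrc1, Mertk, Cd68, Acp5 and Lyz2 of the marker lists. List symbols absent from the files were matched through single RefSeq synonyms. Alternatives were 2 scalings, other pseudocounts, minimums and sizes. Computation used Python 3.11.15, numpy 2.4.6 and pandas 2.3.3, and plots matplotlib 3.10.9.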

Additional observations from a re-analysis of the deposited data

How the results depend on the processing

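The count of members called lower, 4, was 1 (Wfdc17) with a pseudocount of 5 FPKM and 0 at a 4-fold size, 3 with a minimum of 10 FPKM, which leaves out Ccl4, and 4 under every other alternative. No member was called higher under any. Over all measured genes, 20 were called lower and 12 higher. These counts were 39 and 17 with a pseudocount of 0.25 FPKM, 6 and 5 with one of 5 FPKM, 94 and 41 at a 1.5-fold size, and 2 and 2 at a 4-fold size. A minimum of 10 FPKM gave 14 and 5. With no pseudocount, an alternative chosen after seeing the data, they were 60 and 26. All follow from the construction of the size, the minimum and the pseudocount. Of 45 recomputed log2 ratios of members 40 moved by less than the spread of genes of like level, and the 5 that moved were of Ccl3, Ccl4 and Ccl7 with another pseudocount or none. Of 115 recomputed list medians 21 moved, all with another pseudocount or minimum, or none. Leaving out genes listed at 0 was also chosen after seeing the data and gave 18 lower and 11 higher genes. No paired analysis was possible because only 1 library stands for each genotype, which leaves no replicate to take out. Depth limits the low members Ccl2, Ccl7, Ccr2 and, in the KO library, Ccl4.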
